A study of Mus musculus with 58 samples.

Results

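Adipoq, Lep, Plin1, Plin4, Cfd, Fabp4, Retn, Cidec, Pparg and Lipe are 10 genes of fat cells, listed here for white fat. They were followed in lung, liver and forestomach of the same mice. The list was chosen by hand from what is known of fat cells, with earlier results of these arrays already in view, and no cut-off on a measured value was applied. The 10 genes are 10 of 20651 gene names on the array and are covered by 12 probes, with 1 probe each for 8 genes and 2 probes each for Retn and Cidec. All the values below were therefore known in outline when the list was made, and they are given as a description.

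The animals were male Muta™Mouse of about 13 weeks, a transgenic strain that carries a lacZ reporter for mutations in every cell. They received olive oil alone (vehicle, mice 1 to 5) or indeno(1,2,3-cd)pyrene (IP), a polycyclic aromatic hydrocarbon, in olive oil at 12.5 (mice 6 to 10), 25 (mice 11 to 15) or 50 mg/kg-bw/day (mice 16 to 20). Dosing was by oral gavage for 28 days, and tissues were taken 3 days after the last dose. Each array compared Cy5-labelled RNA of 1 tissue of 1 mouse with a Cy3-labelled universal reference made from mouse cell lines. Lung had 5 arrays per group, while liver and forestomach had 4 vehicle arrays (mouse 4 has lung only) and 5 per dose.

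The labelled tissues carried their own markers. Sftpc, a surfactant protein gene of the alveolar epithelium, lay between 6.79 and 8.54 in lung on the log2 scale of sample over reference, the unit of all levels below. Alb, the albumin gene, lay between 6.28 and 8.30 in liver, and Krt5, a keratin of squamous epithelium, between 3.07 and 3.87 in forestomach. The share of probes well above background on an array was 53 to 90.7% in lung, 37.6 to 78.9% in liver and 43 to 85.9% in forestomach. In lung the arrays of mice 3, 8, 13 and 18, which shared a slide, had 83.8 to 90.7%. The other lung arrays had 53 to 70.4%. The lung and forestomach samples were hybridised on the same 5 slides, those of liver on separate ones. In lung and forestomach each dose group had a column of the slide to itself, so that dose and array position cannot be told apart there, while in liver mice 9 and 14 lay outside the column of their group.

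White fat cells store energy as triglyceride in a single large lipid droplet and release it as fatty acids between meals. They also secrete hormones and other proteins that act on liver, muscle and brain. Fat cells are not a cell type of the lung, liver or forestomach wall itself, but depots of fat lie against the heart, the great vessels, the stomach and the gut.

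Pparg and the C/EBP factors drive the fat cell programme, and the promoters of these genes are where such factors have long been studied. RefSeq promoters of GRCm38.p6 were at hand for 9 of the 10 genes (Fabp4 is the exception), as 13 windows of the 250 bases before a gene start. They were searched on both strands for a C/EBP box, TTGCNNAA, and for CCAAT, which do not overlap in them. The C/EBP box was in 4 of the 13 windows and in 9.56% of 32851 promoters of the same length, and CCAAT was in 4 of the 13 windows and in 33.8%. Those of Adipoq, Plin1 and Lep are shown, 5′ to 3′ toward the gene start and with the matches in capitals, because the first pair followed each other closely from mouse to mouse while Lep did not.
Adipoq promoter, chr16:23146286-23146535, plus strand: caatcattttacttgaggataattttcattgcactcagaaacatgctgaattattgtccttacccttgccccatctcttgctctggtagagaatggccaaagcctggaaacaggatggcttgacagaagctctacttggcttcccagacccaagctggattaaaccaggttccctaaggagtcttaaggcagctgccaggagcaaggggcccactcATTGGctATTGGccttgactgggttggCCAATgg
Plin1 promoter, chr7:79732777-79733026, minus strand: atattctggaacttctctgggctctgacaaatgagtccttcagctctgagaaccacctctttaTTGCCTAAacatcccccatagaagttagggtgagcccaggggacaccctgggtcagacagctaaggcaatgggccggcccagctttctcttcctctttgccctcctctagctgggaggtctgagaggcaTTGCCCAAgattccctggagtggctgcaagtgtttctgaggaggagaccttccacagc
Lep promoter, chr6:29059971-29060220, plus strand: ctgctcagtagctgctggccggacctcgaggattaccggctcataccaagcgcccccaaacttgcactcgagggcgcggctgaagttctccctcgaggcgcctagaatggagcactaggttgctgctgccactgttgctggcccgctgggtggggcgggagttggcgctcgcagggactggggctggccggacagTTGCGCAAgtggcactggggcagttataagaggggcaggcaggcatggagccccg
The Adipoq window holds 3 CCAAT matches, the outer of them 30 and 3 bases before the start and the first pair on the other strand (ATTGG). The Plin1 window holds C/EBP boxes 180 and 51 bases before the start, and the Lep window holds 1 at 48 bases. A match describes letters and is not a bound site, and the array data do not bear on binding.

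In vehicle mice the genes differed in where they were found. Fabp4, a carrier of fatty acids that endothelial cells and macrophages also make, had a mean level of 5.61 in forestomach, 4.34 in lung and 1.94 in liver. Cfd, which encodes the complement protease adipsin, had 5.76 in lung, 2.14 in forestomach and 0.11 in liver. For both genes the vehicle mice of lung and forestomach overlapped, and the lung mice ran from 3.96 to 7.42 for Cfd while the forestomach mice ran from 0.21 to 5.22.

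Cidec, a lipid droplet protein that hepatocytes and other cells can also make, kept the tissues apart by its brighter probe only. By that probe lung was at 3.69 to 4.84, forestomach at 1.43 to 2.82 and liver at 0.32 to 1.30. By the second probe lung, at 0.45 to 1.53, overlapped with forestomach, at 0 to 0.51. Forestomach in turn overlapped with liver, at −0.03 to 0.31. Pparg, the nuclear receptor that fat cell formation depends on, was ordered otherwise, with forestomach at 1.56 to 2.72, lung at 0.75 to 1.08 and liver at −0.13 to 0.05. Plin4, another lipid droplet coat protein, had means of 2.01 in forestomach, 0.22 in lung and −1.51 in liver, the last 2 nearly touching with −1.12 in the lowest lung and −1.15 in the highest liver. Lipe, the hormone-sensitive lipase that frees stored fat, overlapped in all 3 tissues, with means of 1.03 in lung, 0.70 in forestomach and 0.54 in liver.

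The genes made by few cells other than fat cells were near background in most vehicle mice outside the lung. Adipoq, which encodes adiponectin, had a mean of 2.36 in vehicle lung and was well above background on 5 of 5 arrays, while in vehicle liver it was above background on 0 of 4. Plin1, the coat protein of the fat cell droplet, had a mean of 1.90 in vehicle lung, and was above background on 0 of 4 vehicle arrays in liver and on 0 of 4 in forestomach. Retn, which encodes resistin, had means of 1.49 in lung, 0.02 in forestomach and −0.41 in liver. Lep, which encodes leptin, stayed between −0.03 and 0.71 on all 58 arrays and was above background on 10 of 20 lung, 8 of 19 forestomach and 0 of 19 liver arrays. Since liver arrays were on slides of their own, tissue and slide cannot be told apart for liver.

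**Figure D1:**
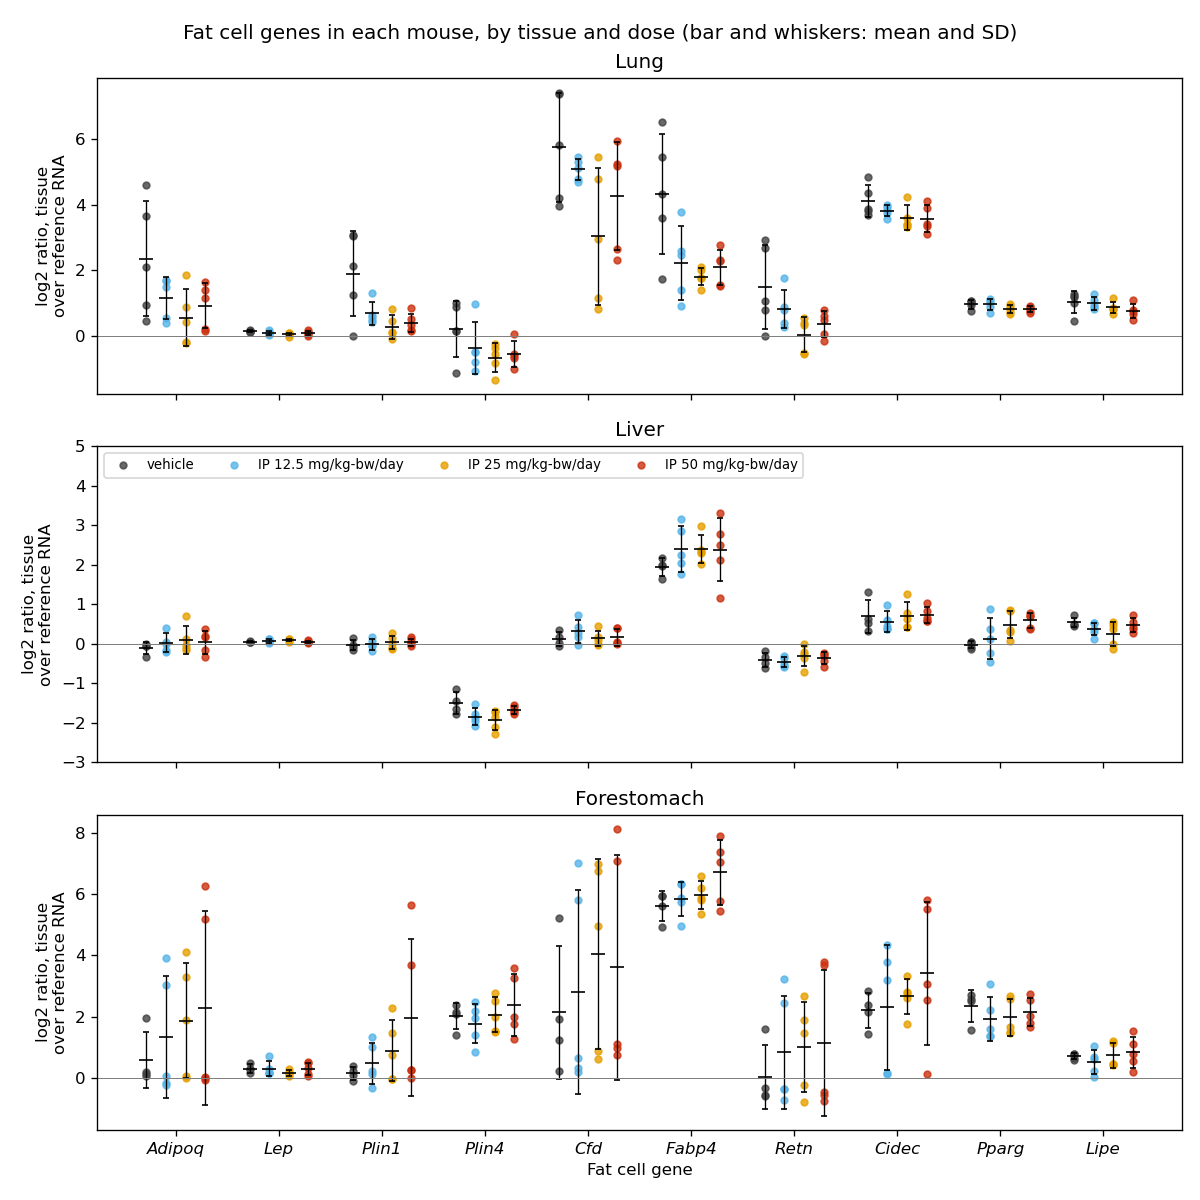
Level of the 10 fat cell genes (log2 of sample over reference, vertical axis) in every mouse, with a panel for each tissue and points coloured by dose; bars and whiskers are group means and SDs. In lung the vehicle mice spread widely and hold the highest points of Adipoq, Plin1, Cfd, Fabp4 and Retn, in forestomach 2 mice at 50 mg/kg-bw/day hold the highest points of Adipoq, Plin1, Cfd, Retn and Cidec, and in liver Fabp4 spreads most.

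The lung was the tissue in which the doses lay below the vehicle group for all 10 genes, but not for all mice. Fabp4 in the lung of vehicle mice 1 to 5 was 1.74, 6.54, 3.61, 4.34 and 5.46. At 12.5 mg/kg-bw/day it was 2.46, 2.59, 3.77, 0.90 and 1.41, at 25 it was 2.09, 1.77, 1.78, 2.00 and 1.40, and at 50 it was 2.29, 1.56, 1.52, 2.31 and 2.78. Vehicle mouse 1 lay among the exposed mice, mice 2, 4 and 5 lay above every exposed mouse, and mouse 3 lay just below mouse 8 of the 12.5 group. The difference from vehicle was −2.11, −2.53 and −2.24 on the log2 scale at the rising doses, with a standard error of 0.62 each and adjusted p values in limma of 1, 0.196 and 0.161.

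Plin1 followed the same mice. In vehicle lungs it was 0.00, 3.04, 1.25, 2.13 and 3.08. At 12.5 mg/kg-bw/day it was 0.44, 0.64, 1.32, 0.48 and 0.58, at 25 it was 0.82, −0.10, 0.13, 0.46 and 0.10, and at 50 it was 0.33, 0.14, 0.19, 0.51 and 0.84. Again mice 2, 4 and 5 stood above all exposed mice, while mouse 1 was lower than all but 1 of them. The differences were −1.21, −1.62 and −1.5 (SE 0.40 each), with adjusted p values of 1, 0.201 and 0.135.

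Adipoq in vehicle lungs was 0.47, 4.61, 0.94, 2.10 and 3.66. At 12.5 mg/kg-bw/day it was 1.5, 1.69, 1.71, 0.54 and 0.41, at 25 it was 1.87, −0.22, 0.44, 0.88 and −0.17, and at 50 it was 1.39, 0.22, 0.16, 1.16 and 1.65. Here too the groups overlapped, through vehicle mice 1 and 3. The differences were −1.19, −1.80 and −1.44 (SE 0.61 each), with adjusted p values of 1, 0.465 and 0.477.

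Cfd moved over a wider range and kept no order with dose. In vehicle lungs it was 4.20, 7.39, 3.96, 5.82 and 7.42, and at 12.5 mg/kg-bw/day 5.13, 5.47, 5.31, 4.79 and 4.71. At 25 it was 5.47, 1.15, 2.96, 4.80 and 0.83, and at 50 it was 5.19, 2.64, 2.32, 5.24 and 5.95. Mice 12 and 15 were lowest, and 3 of the 5 mice at 50 mg/kg-bw/day lay within the vehicle range. The differences were −0.67, −2.72 and −1.49 (SE 0.88 each), with adjusted p values of 1, 0.429 and 0.703.

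Retn in vehicle lungs was −0.01, 2.94, 0.78, 1.06 and 2.69, and at 50 mg/kg-bw/day 0.61, −0.15, 0.05, 0.50 and 0.79. The exposed mice again lay beside vehicle mouse 1 and below mice 2 and 5. The difference at 50 was −1.13 (SE 0.43, adjusted p = 0.397), and the second Retn probe gave −1.18 (SE 0.50).

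The remaining genes moved less in lung. At 50 mg/kg-bw/day Plin4 differed by −0.77 (SE 0.36), Cidec by −0.54 (SE 0.22; second probe −0.40, SE 0.20) and Lipe by −0.27 (SE 0.14). Pparg differed by −0.15 (SE 0.09) and Lep by −0.05 (SE 0.05). The factor that governs the fat cell programme and the hormone of fat mass thus had the smallest differences, Lep over a range near background and Pparg over a total range of 0.47 in 20 mice. Lep ran from −0.03 to 0.10 at 25 mg/kg-bw/day and from 0.11 to 0.19 in vehicle mice. It was above background on 1 of 5 arrays at 25 and on 3 of 5 vehicle arrays. The share of all lung probes whose groups separated in this way was not counted, so the separation is not read as a result for Lep.

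Counted over the list, 10 of 10 genes lay lower at each of the 3 doses in lung, with median differences of −0.63, −1.16 and −0.95. Over all genes the median was 0.00, 0.01 and 0.01, and 48.2, 47.5 and 47.4% of genes lay lower. An unadjusted p under 0.05 with a lower level was reached by 2, 7 and 6 of the 10, where 1.41, 2.69 and 3.76% of all probes reached it. A probe was called where limma's adjusted p did not exceed 0.05 and the fold change reached 1.5. By this rule 0 of 10 were called at each dose, and of all probes 0, 0.0126 and 0.079% were called. With each array centred on its median instead of loess, the median of all genes moved up by as much as 0.12, 8, 9 and 9 of the 10 genes lay lower, and Pparg lay higher at each dose. At 12.5 mg/kg-bw/day the 10 included Pparg at −0.01 (SE 0.09) and Lipe at −0.03 (SE 0.14). There 9 lay lower with outlier spots kept, with the authors' values or with Cy5 alone, and 8 with the scanner log ratio. With 1 mouse left out, 8 to 10 lay lower at that dose.

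**Figure D2:**
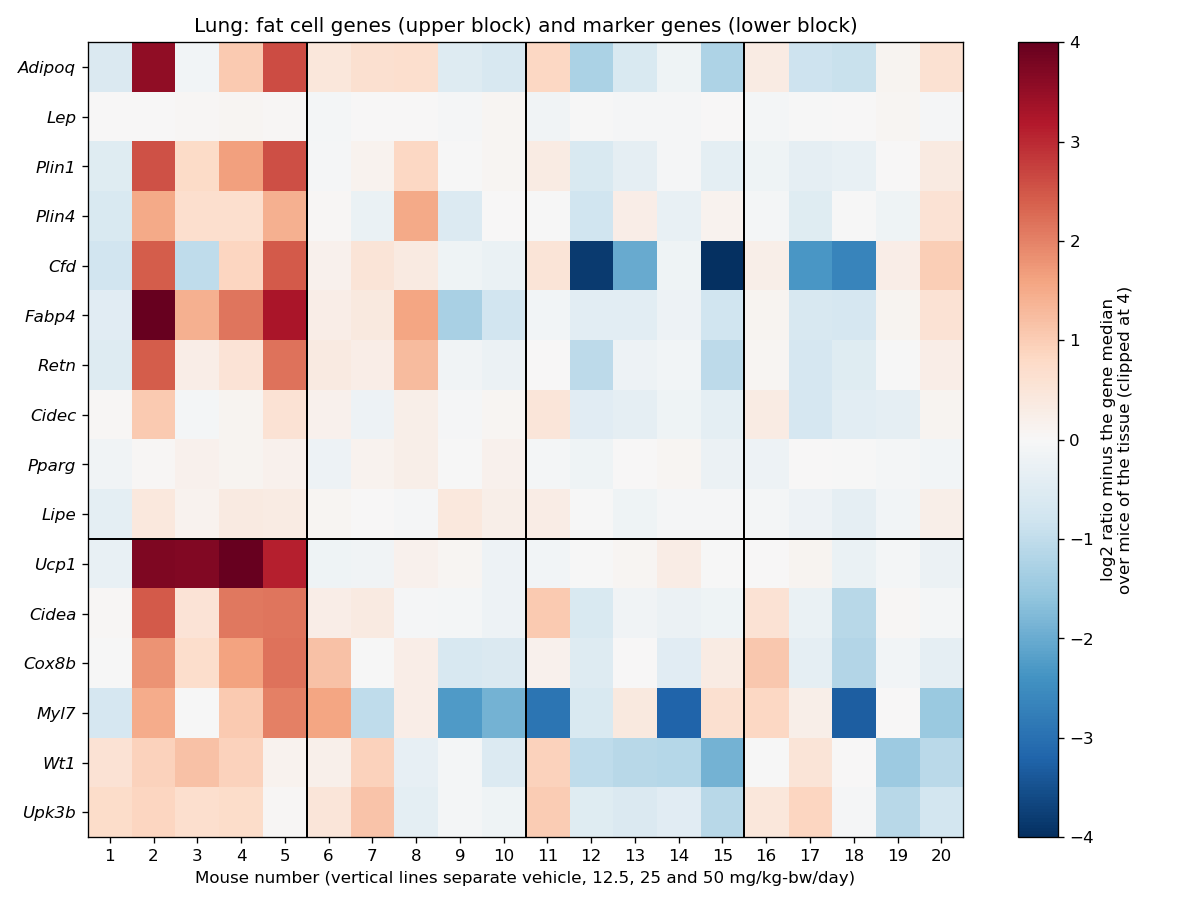
Lung levels of the 10 fat cell genes (upper block) and of 6 marker genes of brown fat, heart muscle and mesothelium (lower block) in each of the 20 mice, with mice in columns ordered by dose. Colour is the log2 ratio minus the median of the gene over the mice, red above and blue below, limited at 4 in either direction; vehicle mice 2 and 5 are reddest for Adipoq, Plin1, Fabp4, Cfd and Retn, Ucp1 is red in vehicle mice 2 to 5 only, and vehicle mouse 1 resembles the exposed mice in these 6 rows.

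A few animals carried the lung pattern. Mouse 5 was among the 5 highest lungs for 10 of 10 genes, mice 2 and 4 for 8, mouse 8 of the 12.5 group for 7, and mouse 1 for 0. Without vehicle mouse 1, Plin1 was called at 25 (−2.09, adjusted p = 0.00689) and 50 mg/kg-bw/day (−1.97, adjusted p = 0.00591), and so was Fabp4 (−3.18, adjusted p = 0.0255, and −2.89, adjusted p = 0.0206). Without vehicle mouse 2 the median difference of the 10 genes was −0.29, −0.89 and −0.67 at the rising doses. At 12.5 it was −0.99 without mouse 1 and −0.32 without mouse 5.

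Each lung slide held 1 array per group, so every dose could be set against the vehicle array of its own slide. On the slide of vehicle mouse 1, Fabp4 lay 0.72, 0.36 and 0.55 above vehicle at the rising doses. On the other slides its difference at 50 was −4.99, −2.09, −3.14 and −1.56. Plin1 at 50 was 0.32 on the first slide and −2.90, −1.06, −2.57 and −1.29 on the others. With slide as a block 0 genes were called, and the adjusted p at 50 was 0.0539 for Plin1 and 0.0712 for Fabp4.

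Markers of heart muscle and of the mesothelium that lines the chest also differed between lungs. The 10 heart muscle genes had a mean level per mouse of 1.68 to 3.83 in vehicle lungs, 0.31 to 3.00 at 12.5, 0.27 to 2.69 at 25 and 0.18 to 2.62 at 50 mg/kg-bw/day, and 10 of 10 lay lower at 50 (median −1.14), with 0 at an unadjusted p under 0.05 there and 5 at 25. Myl7, an atrial myosin light chain, was 2.51, 4.65, 3.14, 4.23 and 5.19 in vehicle mice 1 to 5, so that mouse 1 was lowest and mice 2 and 5 highest, the order of Adipoq and Plin1 at both ends. Of the 8 mesothelial markers 7 were on the array, with a mean level of 0.00 to 0.73 in vehicle lungs, −0.41 to 0.73 at 12.5, −1.05 to 0.86 at 25 and −0.88 to 0.53 at 50, and 6 of 7 lay lower at 50 (median −0.72). Their part in the fat cell values was not tested.

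Markers of the lung's own cells lay on both sides of vehicle at 50 mg/kg-bw/day. The 9 alveolar epithelium genes differed by −0.24 to 0.27 (median −0.04, 1 with an unadjusted p under 0.05). The 8 endothelial genes differed by −0.25 to 0.63, the highest being Emcn (median 0.00, 0 at that p), and the 11 alveolar macrophage genes by −0.09 to 0.75, the highest being Marco (median 0.02, 0 at that p). The 10 skeletal muscle genes had a median of −0.10 and the 12 genes of fat precursor and stromal cells one of −0.05. In whole tissue, fewer fat cells and less of these RNAs per fat cell cannot be told apart.

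Genes of brown fat, the heat-producing kind, also lay mostly lower in exposed lungs, with a median of −0.33 at 50 mg/kg-bw/day. Ucp1, the uncoupling protein that releases the heat, was −0.13, 3.91, 3.88, 4.73 and 3.30 in vehicle mice 1 to 5 and lay between −0.10 and 0.47 in all 15 exposed lungs. The difference at 50 mg/kg-bw/day was −3.05 (SE 0.54, adjusted p = 0.0165), past both thresholds, although vehicle mouse 1 lay below every exposed lung and 2 of 5 arrays at 50 were above background. Without vehicle mouse 2, mouse 18 or mouse 19 it was not called (−2.86, −3 and −3.05, adjusted p of 0.0638, 0.0617 and 0.0539). Of 15 brown fat genes 12 lay lower at 50, 8 with an unadjusted p under 0.05 and 1 called. Cidea, a droplet protein of brown fat, differed by −1.62 (SE 0.39, adjusted p = 0.0977), and the respiratory chain subunits Cox8b and Cox7a1, which heart muscle also uses, by −1.43 (SE 0.41) and −1.05 (SE 0.39).

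Fatty acid synthesis genes lay lower in exposed lungs in 11 of 11 cases at each dose, with a median of −0.22 at 50 mg/kg-bw/day. Thrsp, a regulator of lipid synthesis, differed by −1.98 (SE 0.41, adjusted p = 0.0509). Acaca, the acetyl-CoA carboxylase that makes the first intermediate, differed by −0.51 (SE 0.09) with an adjusted p of 0.0123, but its fold change was under the threshold. Elovl6, an elongase, differed by −0.70 (SE 0.24), and Scd1, the stearoyl-CoA desaturase, by −0.41 (SE 0.21).

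Among 24 genes of fat storage and lipolysis, 18 lay lower and 6 reached an unadjusted p under 0.05 (median −0.13). Pck1, which makes glycerol phosphate for triglyceride in fat cells, differed by −1.63 (SE 0.51), Dgat2, which adds the last fatty acid to triglyceride, by −1.06 (SE 0.32), the insulin-responsive glucose transporter Slc2a4 by −0.73 (SE 0.32) and Gpd1 by −0.66 (SE 0.16). Among 12 transcription factors of fat cells 3 reached that p, all lower, with Cebpd at −0.72 (SE 0.25) and Cebpb at −0.50 (SE 0.09, adjusted p = 0.0251, its fold change under the threshold). Other fat cell genes were lower in 14 of 19 cases, led by Car3, a carbonic anhydrase abundant in fat, at −1.89 (SE 0.69).

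The secreted signals that fat cells share with other cells did not go one way. Angptl4, an inhibitor of lipoprotein lipase, differed by −1.15 (SE 0.48), while Apln, the apelin gene, differed by 0.59 (SE 0.17). The median of the 13 was −0.16. The receptors and binding partners of leptin and adiponectin had a median of −0.02 over 6 genes, with 0 of 6 at an unadjusted p under 0.05.

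**Figure D3:**
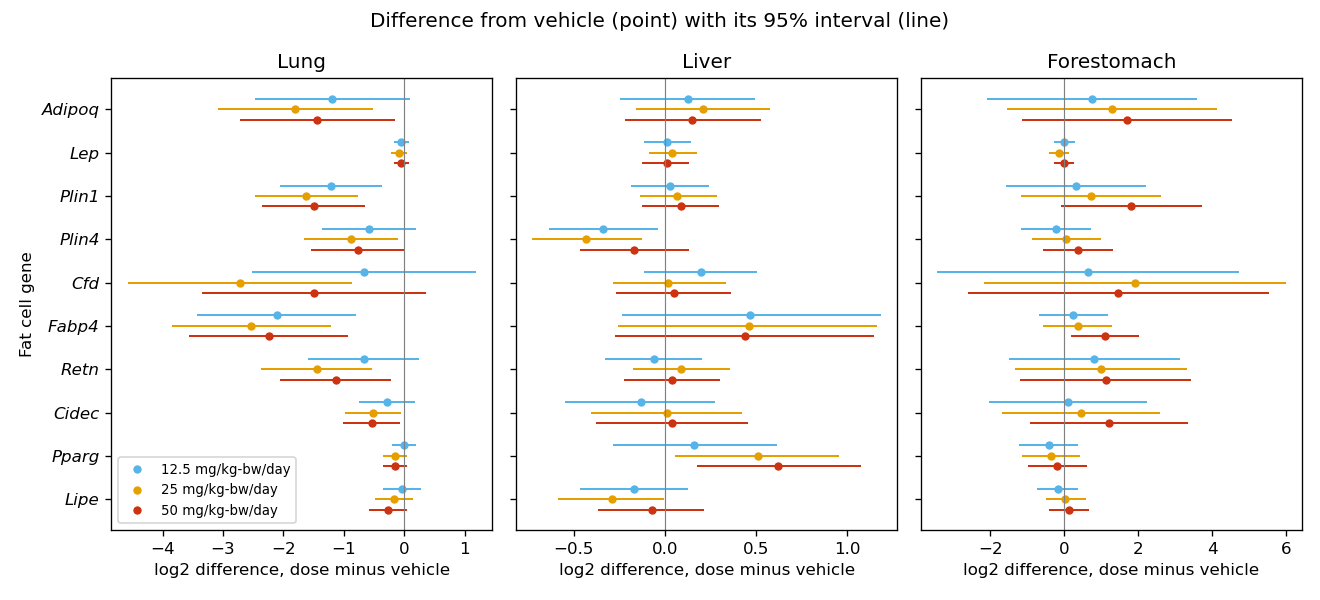
Log2 difference of each dose group from vehicle (horizontal axis, with a scale of its own in each panel) for the 10 genes in lung, liver and forestomach; points are limma estimates and lines their 95% confidence intervals. Lung estimates lie left of 0, forestomach estimates of Adipoq, Plin1, Cfd, Retn and Cidec lie right of 0 with wide intervals, and liver estimates lie between −0.43 and 0.62.

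Within a dose group most of the fat cell genes varied together in lung. After the group mean was removed, the Pearson r of a gene with the mean of the other 9 over 20 lungs was 0.96 for Retn, 0.95 for Adipoq, 0.92 for Plin1 and 0.87 for Fabp4. It was 0.78 for Cidec, 0.76 for Cfd, 0.72 for Plin4, 0.58 for Lipe, 0.27 for Pparg and −0.24 for Lep. Over the 45 pairs the median r was 0.54, and 24 pairs were over 0.5. The points share a mouse, an array and a slide, and the values are a description.

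The genes most like the list in lung, out of 15605, were Car3 (r = 0.94), Adig, a small fat cell membrane protein (0.92), Pck1 (0.91), Dgat2 (0.83), Mrap, a partner of the corticotropin receptor (0.83), Cidea (0.82), Thrsp (0.80) and Acadm, an enzyme of fatty acid oxidation (0.79). Car3 ran from −0.36 to 5.32 and Pck1 from −0.14 to 3.96 over the 20 lungs. Vehicle mice 2 and 5 were again the highest for both.

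In forestomach several of the same genes were either near background or high, with both kinds of mice in every dose group. Adipoq in vehicle mice 1, 2, 3 and 5 was 1.96, 0.19, 0.07 and 0.12. At 12.5 mg/kg-bw/day it was −0.23, 0.07, 3.04, −0.16 and 3.90, at 25 it was 3.28, 1.90, −0.02, 4.12 and 0.05, and at 50 it was 6.25, 0.02, 5.19, −0.07 and −0.01. Every group held mice on both sides, with 1 high animal in the vehicle group, mice 8 and 10 at 12.5, mice 11, 12 and 14 at 25, and mice 16 and 18 at 50. The difference from vehicle was 0.74, 1.28 and 1.69 (SE 1.34 each), and the adjusted p was between 0.98 and 1. Adipoq was above background on 1 of 4 vehicle arrays and Retn on 2 of 4, so these differences are against a vehicle group mostly near background. The forestomach arrays of mice 8 and 18 had 81.2 and 85.9% of all probes above background. The other forestomach arrays had 43 to 58.9%. The part of these arrays in the forestomach values was not tested.

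Cfd marked the same animals. It was 5.22, 1.24, 0.21 and 1.91 in vehicle mice, 0.63, 0.32, 5.81, 0.18 and 7.01 at 12.5, 6.75, 4.97, 0.89, 6.99 and 0.61 at 25, and 8.13, 0.76, 7.07, 1.1 and 0.97 at 50 mg/kg-bw/day. The 8 animals high for Adipoq were those at 4.97 or more for Cfd, and all others were at 1.91 or less. Retn in these 8 lay between 1.45 and 3.77 and in the others between −0.80 and −0.22.

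Plin1 was high in fewer animals. It was above background on 0 of 4 vehicle arrays, where it was 0.39, 0.09, −0.10 and 0.23. At 12.5 mg/kg-bw/day it was −0.33, 0.21, 1.32, 0.13 and 1.00, at 25 it was 1.46, 0.75, −0.05, 2.27 and −0.04, and at 50 it was 5.64, −0.01, 3.70, 0.25 and 0.24. On the normalized Cy5 scale the 50 mg/kg-bw/day group, with 2 of 5 arrays above background, was at least 3.34-fold higher than vehicle (limma difference 1.81, SE 0.89, adjusted p = 1), against at least 1.54-fold at 25 and at least 1.24-fold at 12.5. These bounds compare the mean of the dose group with the higher of the vehicle signal and the lowest signal called above background on the array. The bounds allow for background and not for the spread between mice, and at the top dose they rest on mice 16 and 18. Without mouse 16 the limma difference at 50 was 0.89.

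Fabp4 was high in every forestomach. It was 5.95, 5.62, 4.92 and 5.95 in vehicle mice and 7.91, 7.05, 7.38, 5.78 and 5.45 at 50 mg/kg-bw/day, so that 3 of 5 mice lay above all vehicle mice. The difference at 50 was 1.11 (SE 0.43, adjusted p = 1). Cidec had its own spread, with 5.82 and 5.51 in mice 16 and 18, 4.34 in mouse 6, and 0.11, 0.14 and 0.13 in mice 7, 9 and 17. Lep lay between 0.05 and 0.71, its highest value in mouse 10.

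Over the list, 7, 8 and 8 of 10 genes lay higher at the rising doses in forestomach, with medians of 0.18, 0.41 and 1.11 (all genes −0.02, 0.02 and 0.01). Of the 10, 0, 0 and 1 had an unadjusted p under 0.05, where 4.12, 3.59 and 3.89% of all probes did. The single gene was Fabp4. By both thresholds 0 of 10 were called at each dose, with 0% of all probes called. Mouse 16 was the highest forestomach for 8 of 10 genes, and without it the median at 50 was 0.40, against 0.54 without mouse 18. At 25 the median was 0.24 without mouse 14. At 12.5 it was −0.04 without mouse 8, −0.03 without mouse 10 (6 of 10 genes lower), 0.04 without vehicle mouse 3 and 0.33 without mouse 9.

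**Figure D4:**
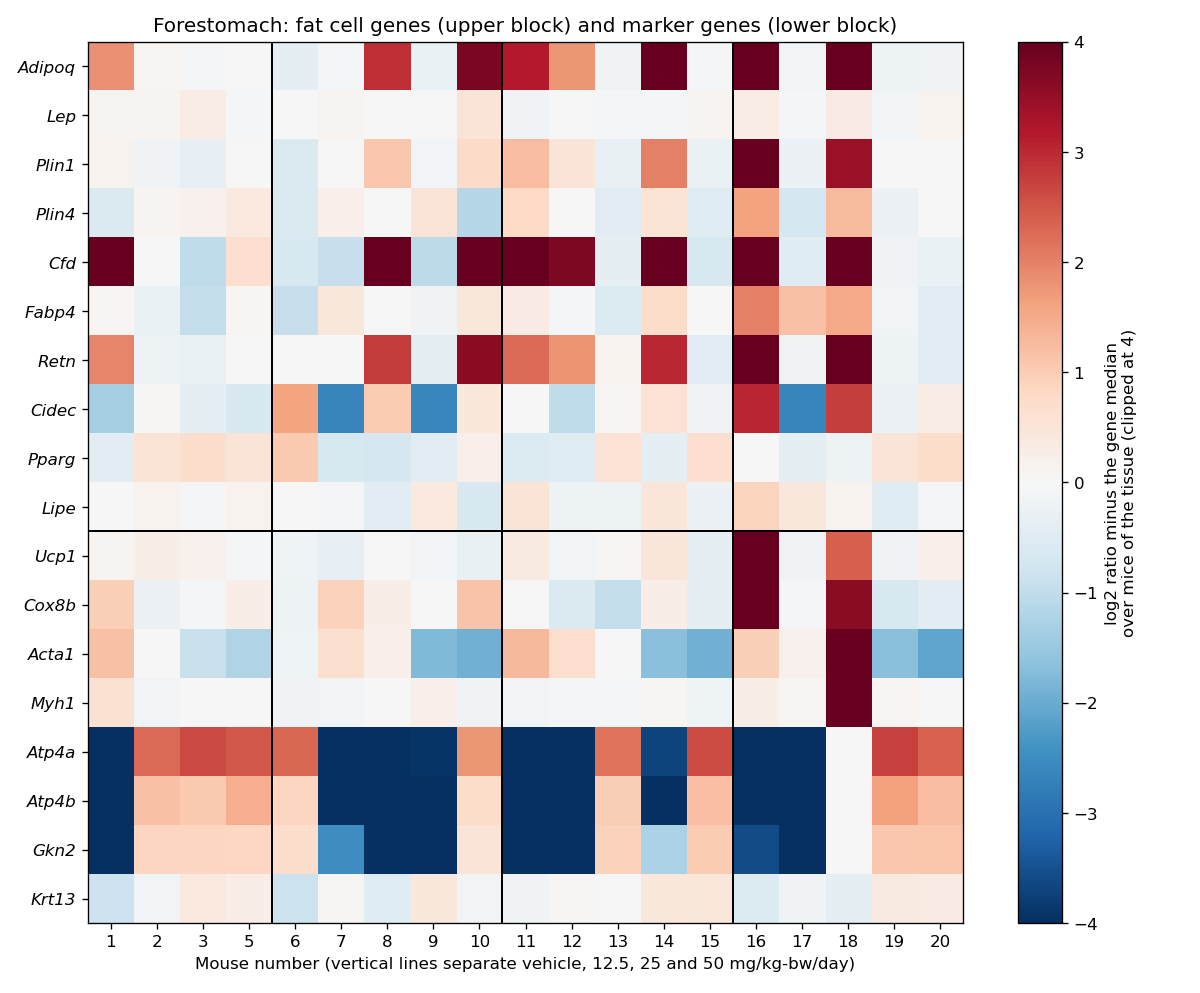
Forestomach levels of the 10 fat cell genes (upper block) and of 8 marker genes of brown fat, skeletal muscle, glandular stomach and squamous epithelium (lower block) in each of the 19 mice, with mice in columns ordered by dose. Colour is the log2 ratio minus the median of the gene over the mice, red above and blue below, limited at 4 in either direction; Adipoq, Cfd and Retn are red in mice 1, 8, 10, 11, 12, 14, 16 and 18, and Atp4a and Atp4b are blue in 9 mice spread over all groups.

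Other tissues varied between the forestomach samples as well. Ucp1 was 5.21 in mouse 16 and 2.86 in mouse 18 and between 0.09 and 0.97 in the other 17, and Cox8b was 6.13 and 5.13 in those 2 mice. Mouse 18 also had 5.48 for Myh1, a myosin of fast skeletal muscle, against −0.17 to 0.62 elsewhere. Atp4b, a subunit of the gastric proton pump of the glandular stomach, was 6.41 to 7.32 in mice 2, 3, 5, 6, 10, 13, 15, 19 and 20 and 5.67 in mouse 18, and lay between 0.17 and 1.1 in the other 9. The 8 glandular stomach genes on the array had a mean level of 0.62 to 6.31 in vehicle mice, 0.91 to 6.26 at 12.5, 1.21 to 6.40 at 25 and 1.38 to 6.42 at 50 mg/kg-bw/day. The medians of their differences from vehicle were −1.73, −1.48 and −0.74. Their part in the fat cell values was not tested.

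Pparg was high where Atp4b was high, apart from mouse 18. It was 2.20 to 3.07 in the 9 mice with Atp4b of 6.41 or more, and 1.35 to 2.01 in the other 10, mice 16 and 18 included at 2.01 and 1.8. Adipoq was high in only 1 of those 9 mice, mouse 10. The Pearson r with the mean of the other 9 genes, after group means were removed, was −0.40 for Pparg, against 0.98 for Adipoq, 0.95 for Retn, 0.93 for Plin1 and 0.89 for Cfd. It was 0.66 for Fabp4, 0.62 for Cidec, 0.52 for Plin4, 0.49 for Lep and 0.29 for Lipe, and 20 of 45 pairs were over 0.5.

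**Figure D5:**
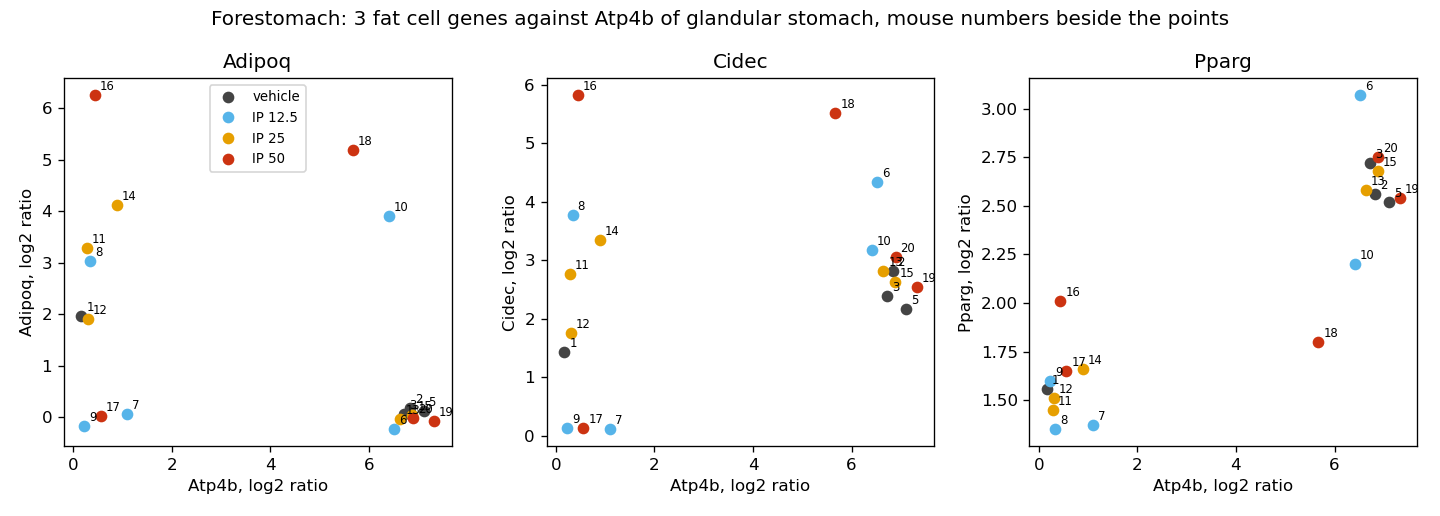
Adipoq (left), Cidec (middle) and Pparg (right) on the vertical axes against Atp4b on the horizontal axes in the 19 forestomach samples, all as log2 of sample over reference, with points for mice coloured by dose and numbered. Pparg is at 2.20 or more in the 9 mice with Atp4b of 6.41 or more, Adipoq is high mostly where Atp4b is low, apart from mice 10 and 18, and the 3 lowest Cidec values lie at low Atp4b.

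The genes most like the list in forestomach, out of 13922, were Thrsp (r = 0.94), Car3 (0.93), Pck1 (0.91), Scd1 (0.91), Adig (0.90), the amino acid transporter gene Slc36a2 (0.88), Mrap (0.88) and Lctl (0.87). Car3, Pck1, Adig, Mrap and Thrsp were thus among the 8 in lung and in forestomach. Pck1 was 6.58 in mouse 16 and 4.06 in mouse 18 and lay between −0.02 and 2.94 in the other mice. Fatty acid synthesis genes lay higher in 9 of 11 cases at 50 mg/kg-bw/day (median 0.53), with Scd1 at 1.66 (SE 0.91), Thrsp at 0.93 (SE 1.01) and Fasn, the fatty acid synthase, at 0.89 (SE 0.37), and 0 of 11 were called.

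In liver the fat cell hormones were near background and the shared lipid genes varied singly. Adipoq was above background on 5 of 19 arrays, Plin1 on 4, Retn on 5 and Cfd on 8. The liver arrays of mice 9, 13, 15, 16 and 20, all of them dosed, had 66.6 to 78.9% of all probes above background. The other liver arrays had 37.6 to 45%. Adipoq was above background on 0 of 4 vehicle arrays and on 1, 2 and 2 of 5 at the rising doses. The part of these arrays in the liver values was not tested. The median r over the 45 pairs was 0.03, with 0 pairs over 0.5.

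Pparg was the gene of the list with the clearest step in liver. It was −0.13, −0.08, 0.04 and 0.05 in vehicle mice, −0.23, −0.47, 0.37, 0.88 and 0.11 at 12.5, 0.30, 0.35, 0.85, 0.82 and 0.06 at 25, and 0.79, 0.39, 0.71, 0.37 and 0.71 at 50 mg/kg-bw/day. The groups at 25 and 50 did not overlap with vehicle, by 0.01 at 25, and 2.1 and 2.71% of all probes did not overlap at these doses. The differences were 0.16, 0.51 and 0.62 (SE 0.21 each), with adjusted p values of 1, 0.906 and 0.718. Mice 9, 13, 16 and 20, at 0.71 to 0.88, and mouse 15, at 0.06, were on the arrays with 66.6 to 78.9% of probes above background. Mice 14 and 18, at 0.82 and 0.71, were not. The part of these arrays in the step was not tested.

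Plin4 differed in liver by −0.34, −0.43 and −0.17 at the rising doses (SE 0.14 each). Its level was −1.78, −1.15, −1.46 and −1.65 in vehicle mice and −1.72, −1.85, −1.74, −2.11 and −2.28 at 25 mg/kg-bw/day, where mouse 11 and mouse 13 lay inside the vehicle range. Fabp4 ran from 1.17 to 3.32, both in the 50 mg/kg-bw/day group, and differed by 0.47, 0.46 and 0.44 (SE 0.34 each). Cidec differed by 0.04 (SE 0.20) and Lipe by −0.07 (SE 0.14) at 50.

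The list as a whole had median differences of 0.02, 0.06 and 0.05 in liver. Of the 10 genes, 1, 3 and 1 had an unadjusted p under 0.05, as had 2.58, 4.42 and 6.84% of all probes. By both thresholds 0 of 10 were called at each dose, with 0% of all probes called. Of the other lists, fatty acid synthesis genes lay lower in 11 of 11 cases at 50 mg/kg-bw/day (median −0.48, 2 with an unadjusted p under 0.05, 0 called). The 8 hepatocyte markers lay lower in 8 of 8 cases at that dose (median −0.46, 2 with an unadjusted p under 0.05), with a mean level per mouse of 7.58 to 8.67 in vehicle livers and 7.46 to 8.31 at 50, and their part in the lipid gene values was not tested. At 50 mg/kg-bw/day mice 16 and 20 were on arrays with 78.9 and 75.2% of probes above background. Mouse 16 had the highest hepatocyte mean of that group. The part of these arrays in the lower values at 50 was not tested. Lepr, the leptin receptor, differed by −0.97 (SE 0.29, adjusted p = 0.652).

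The tissues were then compared in 1 limma fit of all 58 arrays, asking whether the difference at 50 mg/kg-bw/day departed between tissues. That fit gives a probe the same spread in all 3 tissues. The SD of Plin1 within dose groups was 0.71 in lung, 0.14 in liver and 1.47 in forestomach. The standard errors and calls of a comparison thus also carry the spread of the tissue left out of it. For lung minus forestomach the median over the 10 genes was −2.00, with Fabp4 at −3.35 (SE 0.73, adjusted p = 0.111) and Plin1 at −3.31 (SE 0.83, adjusted p = 0.319). For lung minus liver the median was −0.98, with Fabp4 at −2.68 (SE 0.73, adjusted p = 0.331), and for forestomach minus liver it was 0.87, with the lowest adjusted p at 0.786 for Pparg (−0.82, SE 0.37). At an adjusted p of at most 0.05, 0 of 10 genes were called in each comparison, where 0.0162, 0.0144 and 0.00359% of all probes were called for lung against liver, lung against forestomach and forestomach against liver. In the same order, 2, 6 and 2 of the 10 genes had an unadjusted p under 0.05, as had 7.07, 2.92 and 6.15% of all probes. Without forestomach mouse 16 the median for forestomach minus liver was 0.33. Without lung vehicle mouse 1, Fabp4 was called for lung minus liver (−3.33, adjusted p = 0.0316) and for lung minus forestomach (−4, adjusted p = 0.00218), and without forestomach mouse 17 Plin1 was called for lung minus forestomach (−3.8, adjusted p = 0.0477). The comparisons share the arrays of each tissue, and the consensus correlation within mice over the 3 tissues was 0.0459.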

How the data were processed

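The 58 arrays were 2-colour Agilent arrays (Cy5 sample, Cy3 reference) of lung, liver and forestomach RNA from vehicle and IP mice. The authors scanned them and made the intensity values, the median brightness of each spot, with Agilent Feature Extraction 10.7.3.1 (lung, forestomach) or 11.0.1.1 (liver), per the file headers. That software also wrote the deposited log10 ratios, with background subtraction and dye normalization. The deposited log2 ratios were normalized by the authors with LOWESS. Their 19 liver columns did not match the scanner values under their probe names and were not used.

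Uncorrected medians gave log2(Cy5/Cy3), to which limma's loess was applied array by array, and where a probe had several spots their mean was taken, leaving out those marked as outliers. There were 55681 probes, of which 27224 had a gene name from their accession. The brightest probe of a gene was used. Each tissue was fitted in limma 3.58.1 (R 4.3.3, statmod 1.5.0) as 4 groups, with p values adjusted by Benjamini and Hochberg over all probes, and tissues were compared in a joint fit. Calls needed a 1.5-fold change and an adjusted p no higher than 0.05. The fits were tested on simulated data. The number of arrays limits the precision. The methods describe RNA of individual animals, taken from a slice of each tissue, so mice are the replicates. The methods give 4 vehicle mice, while the labels give 5 in lung.

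The fat cell genes and the lists were chosen with earlier results of these data known, so no value above is independent support for the choice. Named genes are the 10 members, up to 4 genes per list with the largest absolute difference at 50 mg/kg-bw/day, called genes, and the 8 genes whose deviations from group means follow those of the list best. Sftpc, Alb, Krt5, Pck1 and Cox8b levels and Lepr were otherwise shown as checks or examples seen with their values. The alternatives were normexp background correction (offset 50, on median signals because no mean signals were used here), median-centring, Cy5 alone after Aquantile, the scanner log ratio, the authors' values, the outlier spots put back, only probes bright enough, slide and mouse as blocks, a trended robust fit, each dose alone with vehicle, the mean over probes, and leaving out each array.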

Additional observations from a re-analysis of the deposited data

Results flagged for a closer look

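In groups of 4 or 5 mice, an outlying mouse was looked for by the gap to its nearest neighbour as a share of the group's range. Of 120 groups 8 passed Dixon's limit, where chance gives about 1 in 20. The count is near that share, so the mice below are listed as a description. In vehicle forestomach mouse 1 stood apart, high for Adipoq (0.936) and Retn (0.88) and low for Pparg (0.829). In lung at 12.5 mg/kg-bw/day mouse 8 was high for Plin1 (0.779) and Plin4 (0.719). Mouse 10 was high for Lep in forestomach at 12.5 (0.738). In vehicle liver mouse 5 was low for Adipoq (0.831) and high for Lipe (0.842). Adipoq was above background on 0 of 4 arrays of that group, and Lep on 3 of 5 forestomach arrays at 12.5, so these cases involve values near background.

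In 5 of 90 cases (10 genes, 3 tissue pairs, 3 doses; 5.56%) every dosed mouse of one tissue lay below its vehicle mean and every dosed mouse of another above it, as in 0.926% of the same cases over all probes. At 25 mg/kg-bw/day, lung minus liver was −2.99 for Fabp4, −0.66 for Pparg and −0.14 for Lep, and forestomach minus liver was −0.19 for Lep. These differences were not tested. At 50 mg/kg-bw/day, lung minus liver was −0.78 for Pparg, with an adjusted p of 0.677 in the joint limma fit. Lep was above background on 0 of 19 liver arrays, so its cases compare values near background.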

How the results depend on the processing

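Of 526 recomputed counts, medians and tissue differences 513 stayed close to the reported value and 13 moved, and of 1776 values of single genes 1730 stayed and 46 moved. Leaving out 1 mouse gave 0 to 2 members called in lung at 25 and 50 mg/kg-bw/day (2 without vehicle mouse 1), with medians from −1.52 to −0.89 and from −1.30 to −0.67. It gave 0 to 1 called for lung minus liver (Fabp4 without lung vehicle mouse 1) and for lung minus forestomach (Fabp4 without lung vehicle mouse 1, Plin1 without forestomach mouse 17). The forestomach medians ran from −0.04 (without mouse 8) to 0.33 at 12.5, from 0.24 (without mouse 14) to 0.54 at 25 and from 0.40 (without mouse 16) to 1.38 at 50, and the forestomach minus liver median from 0.33 (without forestomach mouse 16) to 1.15. The liver medians at 12.5, 25 and 50 were 0.09, −0.01 and 0.12 with median-centring and 0.09, 0.23 and 0.17 with the scanner log ratio. Cy5 alone gave 0.17 at 50, and leaving out dim probes, which keeps 5 of the 10 genes, gave −0.13 at 12.5. The cause of these shifts was not tested.

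Under median-centring the median over all genes shifted by up to 0.12 (lung), 0.28 (liver) and 0.21 (forestomach). With the scanner log ratio Cidec lay 0.18 higher in lung at 25, and −2.22 and −0.98 in forestomach at 12.5 and 50. With mouse as a replicate block, since the same mice gave the 3 tissues, 0 members were called in each tissue comparison and the medians were −0.98, −2.01 and 0.87, so the pairing changed no call. Signal near background limits Lep in all tissues and Adipoq, Plin1, Retn and Cfd in liver, and Adipoq, Plin1 and Retn in vehicle forestomach.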
